A study of Mus musculus with 5 samples.

Results

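Heart tissue of vector-treated mice labelled Tet2+/- was compared with a heart library labelled vector-treated wild-type (WT), gene by gene, by messenger RNA sequencing. A heart below means the tissue of 1 library, from an unknown number of animals. The comparison used 3 of the 5 libraries of the series, chosen by their labels, which are 1 of WT vector and 2 of Tet2 vector. The other 2 libraries, Tet2+/- with oridonin, entered as a source of the replicate spread and in the filter on low values. Their levels are given beside those of some genes. Per the labels every mouse was male and treated for 2 months, with vector or oridonin, and the series describes the hearts as taken 12 months after a bone marrow transplant. The labels do not say whether Tet2+/- describes the donor marrow or the host, what the vector contained, which strain or age the mice had, or whether a library held 1 animal or several. They name no separate source for each replicate, so the spread behind the p-values is that of these libraries and may be technical. The sample titles carry 1 or 2 months, which for some differs from the treatment time, and this number served only to number the replicates.

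Tet2 encodes a dioxygenase that oxidises 5-methylcytosine, the first step of active DNA demethylation. Loss-of-function mutations of Tet2 in blood stem cells let their descendants expand, a state called clonal hematopoiesis, and Tet2-deficient macrophages are known for stronger inflammatory gene expression. Macrophages enter and renew in the heart after a transplant, so transplanted mice are used to ask how mutant blood cells affect heart muscle, fibroblasts and vessels. A bulk heart library pools all cells of the tissue, so that fewer cells of a type and less RNA per cell cannot be told apart in any value below.

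The table listed 17818 genes. Of these, 12734 had at least 1 CPM (the count scaled to the total of the library) in at least 2 of the 5 libraries and were tested, and 5084 did not. Library totals were 15002794 counts for WT and 15535778 and 15334618 for Tet2 vector replicates 1 and 2, so that 3 counts, the floor used here, correspond to 0.193 to 0.200 CPM. The Tet2 columns were deposited as mixes of the 2 replicates and were separated before use. The WT column was itself fitted by a mix of 2 sets of whole counts and was used as deposited, as 1 library. A gene in which that 1 library stands apart from all others cannot be told apart from a difference between the groups. Genes of the mitochondrial genome took 23.6% of WT counts and 26.8% and 29.7% of Tet2 counts. Heart muscle genes were high in all 3 libraries, with Myh6, the adult cardiac myosin heavy chain, at 19850, 20215 and 12264 CPM in WT, replicate 1 and replicate 2. In this order, which is kept below, Tet2 was at 15.6, 19.2 and 7.76 CPM and Kdm5c, the histone demethylase named in the title of the series, at 46.4, 37.7 and 22.1 CPM. WT lay between the replicates for Tet2 and above both for Kdm5c (log2 fold change -0.68 ± 0.36 SE; limma, adjusted p = 0.591).

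Replicate 1 stood apart in genes of the atria, the upper chambers. Myl7, an atrial myosin light chain, had 0, 2739 and 1 counts, and the summed level of 15 atrial genes was 215, 1316 and 213 CPM. Replicate 2 stood apart in a relation to transcript length, shown in the plot of ratios by transcript length. Its median log2 ratio to WT went from 0.34 in the shortest of 5 equal groups of genes to -0.50 in the longest, while that of replicate 1 stayed between 0.06 and 0.10. Median log2 ratios over all genes tested were 0.07 in replicate 1 and -0.05 in replicate 2. For several lists, most of them of short or long transcripts, the median is also given after each gene's ratio was centred on genes of similar length, and the part of either pattern in the results was not tested beyond that.

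**Figure D1:**
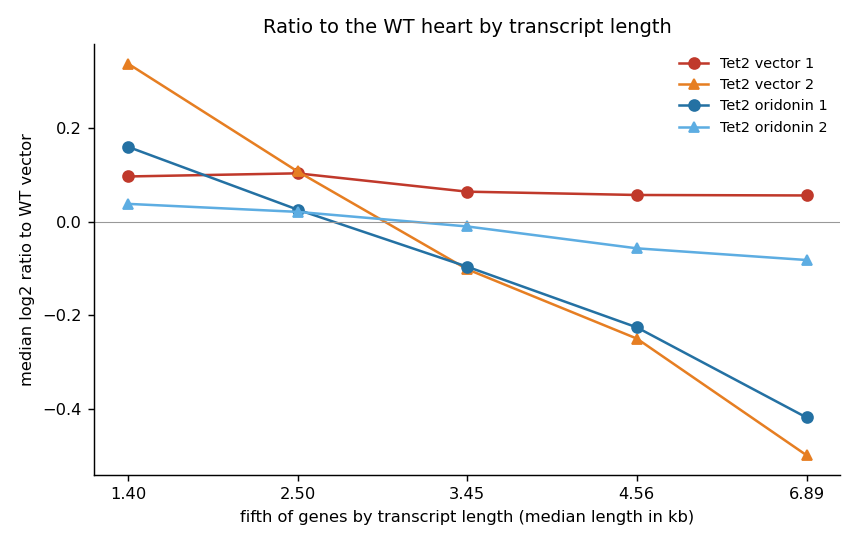
Median log2 ratio to the WT library (y axis) in 5 equal groups of the 12548 tested genes with a known transcript length, ordered along the x axis by length and marked with the group's median length in kb. Lines are libraries. Tet2 vector replicate 2 falls from 0.34 to -0.50 and the 1 line beside it with a like slope is oridonin replicate 1, from 0.16 to -0.42, while Tet2 vector replicate 1 stays between 0.06 and 0.10.

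At a false discovery rate (FDR) of 0.05, limma called 0 of 12734 genes (0%), and the smallest adjusted p was 0.208. At an unadjusted p under 0.05 it found 1221 genes (9.59%), 644 higher (5.06%) and 577 lower (4.53%) in the Tet2 hearts. The fit shares its spread over all 5 libraries and has 2 residual degrees of freedom. Fitted on only the 3 libraries compared, limma called 103 genes (67 higher, 36 lower), on the 1 residual degree of freedom that the Tet2 vector replicates give. Without oridonin replicate 1 or 2 it called 87 or 107 genes, and without Tet2 vector replicate 1 or 2 it called 3 or 2. With totals that leave out the mitochondrial genome, the split at an unadjusted p under 0.05 was 936 higher and 426 lower. No single gene below passed in the fit of 5 libraries, so genes are described as higher or lower in both Tet2 hearts and not as changed. Over all genes tested, 4503 (35.4%) were higher than WT in both replicates, 4114 (32.3%) were lower in both and 4117 had WT in between. At least 2-fold from WT on the same side in both were 547 genes (4.30%), 418 higher (3.28%) and 129 lower (1.01%). The surplus of higher genes lay mostly at lower levels, with 166 higher and 21 lower of 1174 genes with a mean under 2 CPM. At 2 to 10 CPM it was 178 and 46 of 3342, at 10 to 100 CPM 59 and 39 of 6897. At 100 CPM and over, 15 were higher and 23 lower of 1321. Of the genes tested, 598 were under 1 CPM in WT and passed the filter only because other libraries were higher. With 1 CPM required in all 5 libraries, 202 were higher and 99 lower.

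**Figure D2:**
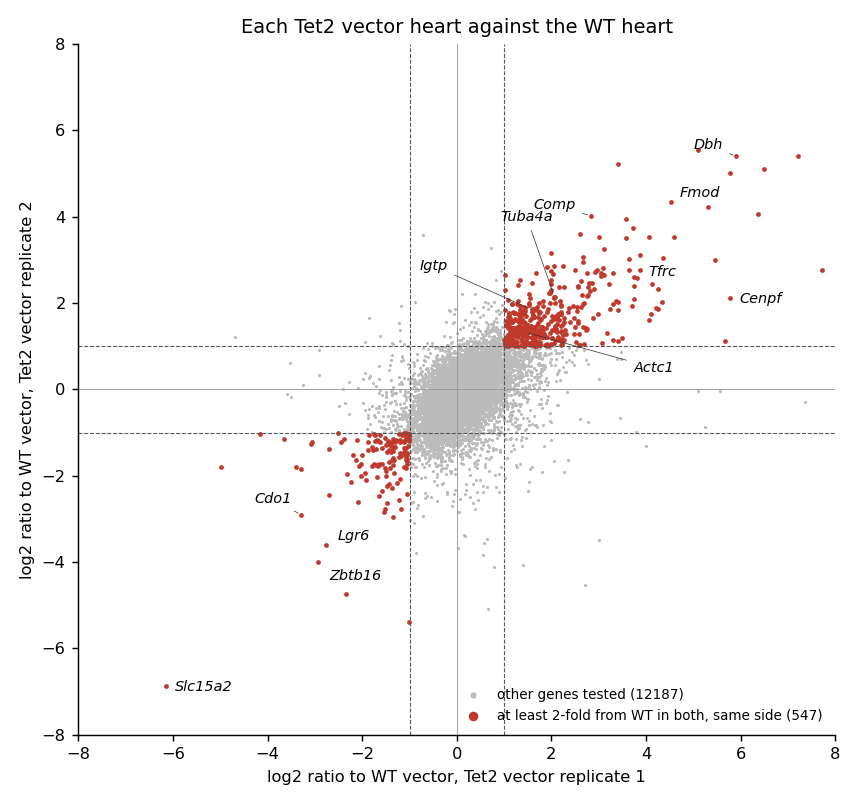
Log2 ratio to the WT library in Tet2 vector replicate 1 (x axis) and replicate 2 (y axis) for each of the 12734 genes tested. Dashed lines mark 2-fold, and red points are the 547 genes at least 2-fold from WT on the same side in both replicates. Both axes share the WT library, which alone draws points towards the diagonal, and ratios of genes near 0 counts depend on the 0.5 added to each count.

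The 12 higher and 12 lower genes with the smallest unadjusted p were taken as the leading genes. All 24 also passed with the 3 libraries alone, which are part of the same data, with limma's adjusted p at most 0.0446. Tuba4a, an alpha-tubulin (chromosome 1, 75214972 to 75221261, GRCm38, as all positions here), led them at 184, 767 and 816 CPM, a log2 fold change of 2.11 ± 0.17 SE (limma, adjusted p = 0.208). Both oridonin libraries were on the Tet2 side, at 894 and 906 CPM. Tuba1b, another alpha-tubulin, was at 43.3, 148 and 133 CPM, and Actc1, the cardiac alpha-actin of the thin filament, at 5211, 14162 and 13073 CPM. Nrep, a small protein of regenerating neurons and fibroblasts, was at 6.13, 28.3 and 21.2 CPM. The adaptor gene Sh3kbp1, which acts in receptor endocytosis, was at 70.4, 211 and 191 CPM.

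A pair of these genes serve iron and haem. Tfrc (chromosome 16, 32608896 to 32632794), the transferrin receptor that brings iron into cells, was at 17.4, 254 and 118 CPM (log2 fold change 3.31 ± 0.50 SE; limma, adjusted p = 0.293). Alas1, the rate-limiting enzyme of haem synthesis outside red cells, was at 91.6, 304 and 234 CPM. In the oridonin libraries Tfrc was at 90.5 and 146 CPM and Alas1 at 239 and 265 CPM, again above the 1 WT library. Genes of red cells lay on the other side: all 8 tested were lower in both Tet2 hearts, 4 of them at an unadjusted p under 0.05, with a median log2 ratio of -0.56 in replicate 1 and -1.29 in replicate 2, or -0.64 and -1.72 with length centred. Their summed level was 959, 680 and 447 CPM. Among them Alas2, the red cell form of the haem enzyme, was at 25.8, 14.0 and 7.37 CPM, and Hba-a1, an alpha-globin whose reads may be shared with its near-identical copy Hba-a2, at 289, 196 and 120 CPM.

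Slc15a2 (chromosome 16, 36750161 to 36785158), a carrier of small peptides, had 171 counts in WT and 2 and 1 in the Tet2 hearts, with 147 and 90 in the oridonin hearts. It was the only gene with at least 30 counts in WT and no more than 3 in each Tet2 vector library. In the opposite direction there were 2 such genes. Dbh, the enzyme that turns dopamine into noradrenaline, had 1, 93 and 64 counts, and 44 and 22 counts under oridonin. Chi3l1, a chitinase-like secreted protein of inflamed tissue, had 1, 53 and 71 counts, and 5 and 0 counts under oridonin.

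Of the remaining lower genes, Lgr6, a receptor for R-spondins in WNT signalling, was at 32.3, 4.76 and 2.61 CPM (log2 fold change -3.19 ± 0.41 SE; limma, adjusted p = 0.289), with 39.0 and 31.6 CPM under oridonin. Timp4, an inhibitor of matrix proteases that the heart expresses strongly, was at 94.5, 18.9 and 24.3 CPM. Spock2, a matrix proteoglycan, was at 41.2, 10.9 and 9.59 CPM. Each of these 3 genes was lower in both Tet2 hearts by more than their replicates differed, which choosing genes by small p favours. Aox1, an aldehyde oxidase, was at 69.1, 23.1 and 20.8 CPM, Tfdp2, a partner of E2F factors, at 198, 73.6 and 61.1 CPM, and Slco3a1, an organic anion carrier, at 278, 106 and 102 CPM. Among genes chosen for their fold, Tcf23, a basic helix-loop-helix factor, was at 17.3, 3.67 and 3.91 CPM. Cntn2, an adhesion protein of axons and of the conduction system, had 4, 205 and 36 counts, and Cenpf, a protein of the kinetochore, 18.8, 1091 and 85 counts, so that most of the difference lay in replicate 1. Replicate 1 is also the library with the atrial signal.

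The genes were next read by function, in 57 lists that held 1242 tested genes. The plot of list medians orders the larger ones. For each list the text gives how many tested members were higher or lower in both Tet2 hearts, to be read beside 35.4% and 32.3% for all genes. The median log2 fold change over all genes was 0.01. Counts at least 2-fold higher or lower are to be read beside 3.28% and 1.01%, and those at an unadjusted p under 0.05 beside 5.06% and 4.53%. The share at least 2-fold higher was larger at low levels, 14.1% under 2 CPM and 5.33% at 2 to 10 CPM. A gene under 1 CPM in WT was tested only because other libraries were higher, so the number of such genes is given where a list holds several.

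**Figure D3:**
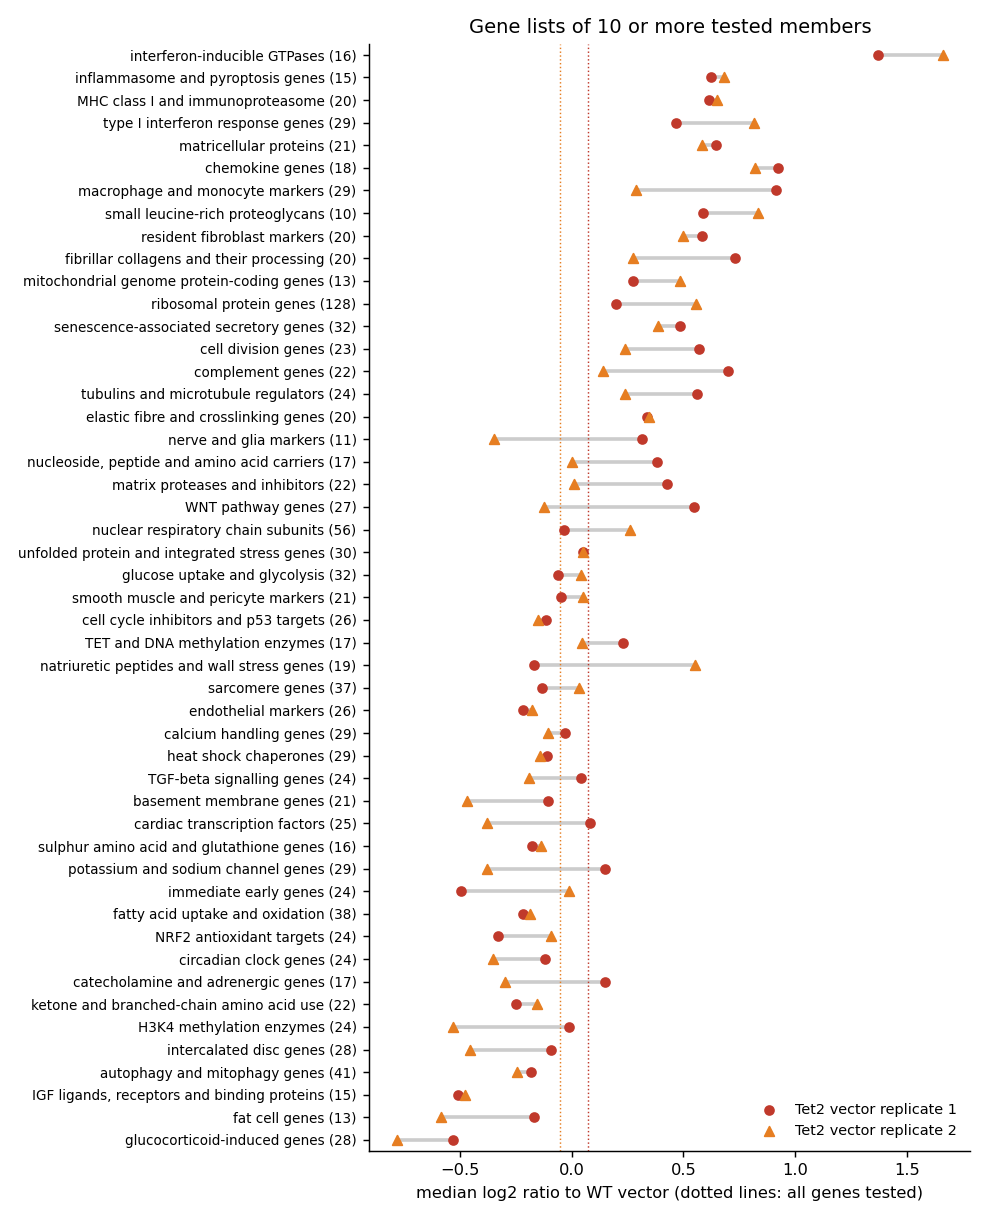
Median log2 ratio to the WT library over the tested members of each list with at least 10 of them (number in brackets), with circles for Tet2 vector replicate 1 and triangles for replicate 2. Dotted lines mark the medians of all genes tested, 0.07 and -0.05. The interferon-inducible GTPases stand highest, at 1.37 and 1.66, and the glucocorticoid-induced genes lowest, at -0.53 and -0.78.

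Among lists with at least 10 tested members, the interferon-inducible GTPases had the highest median. These guanylate-binding proteins (GBP) and immunity-related GTPases (IRG) are made in response to interferon-gamma and attack the vacuoles of intracellular microbes. Of 16 tested, 14 were higher and 2 lower in both Tet2 hearts, 11 were at least 2-fold higher and 1 at least 2-fold lower, and 12 were higher at an unadjusted p under 0.05. The median log2 fold change was 1.53 (1.37 in replicate 1, 1.66 in replicate 2). Igtp (chromosome 11, 58199556 to 58207592), an IRG protein, was at 15.3, 45.8 and 55.2 CPM, a log2 fold change of 1.72 ± 0.24 SE (limma, adjusted p = 0.293), and at 30.3 and 29.0 CPM under oridonin. Its relatives Irgm2, at 25.5, 66.0 and 61.9 CPM, and Tgtp2, at 3.78, 18 and 27.5 CPM, were also above WT in both, although Tgtp2 reads cannot be told from those of the near-identical Tgtp1. Gbp4 was at 11.1, 39.1 and 45.9 CPM and Gbp7 at 5.30, 36.6 and 27.5 CPM. For Gbp7 the oridonin hearts differed from each other, at 4.38 and 26.6 CPM. The lower members, picked out after their values were seen, were Gbp10 at 6.63, 0.644 and 1.83 CPM and Gbp6 at 32.8, 14.1 and 17.0 CPM, both on chromosome 5 among similar GBP copies, so that reads may be divided among them.

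Promoters of 4 of these genes are shown because they carry the letters of the interferon-stimulated response element, to which IRF factors bind. They are taken from RefSeq (GRCm38.p6), from 250 bases before to 50 after the annotated start, read 5′ to 3′ on the gene's strand. The motif searched is a pair of GAAA copies set 2 bases apart, on either strand. Capitals mark the match, as it reads on the strand printed.
Igtp (chr11:58199306-58199605, plus strand): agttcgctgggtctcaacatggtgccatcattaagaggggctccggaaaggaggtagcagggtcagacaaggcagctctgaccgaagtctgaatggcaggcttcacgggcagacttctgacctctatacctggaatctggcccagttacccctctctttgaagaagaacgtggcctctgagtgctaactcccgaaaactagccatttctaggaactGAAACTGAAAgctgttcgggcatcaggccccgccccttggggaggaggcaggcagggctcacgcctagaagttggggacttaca
Irgm2 (chr11:58214727-58215026, plus strand): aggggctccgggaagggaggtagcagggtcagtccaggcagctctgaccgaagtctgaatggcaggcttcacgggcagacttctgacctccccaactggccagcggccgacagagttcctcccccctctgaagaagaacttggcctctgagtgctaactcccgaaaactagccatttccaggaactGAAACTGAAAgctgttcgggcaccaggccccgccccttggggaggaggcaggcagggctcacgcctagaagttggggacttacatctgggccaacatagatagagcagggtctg
Tgtp2 (chr11:49064163-49064462, minus strand): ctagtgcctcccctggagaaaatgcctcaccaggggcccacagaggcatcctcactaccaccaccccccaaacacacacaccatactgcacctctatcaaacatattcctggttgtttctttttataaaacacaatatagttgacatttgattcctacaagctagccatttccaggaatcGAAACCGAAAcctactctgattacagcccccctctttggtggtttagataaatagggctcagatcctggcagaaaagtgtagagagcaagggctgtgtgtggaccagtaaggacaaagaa
Gbp7 (chr3:142530086-142530385, plus strand): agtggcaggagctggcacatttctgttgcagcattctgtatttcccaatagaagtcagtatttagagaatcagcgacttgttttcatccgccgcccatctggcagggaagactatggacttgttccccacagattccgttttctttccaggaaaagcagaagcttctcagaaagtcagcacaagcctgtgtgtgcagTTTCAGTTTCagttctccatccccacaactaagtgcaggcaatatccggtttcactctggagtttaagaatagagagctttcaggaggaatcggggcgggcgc
The match begins at position -34 in Igtp, -64 in Irgm2, -70 in Tgtp2 and -53 in Gbp7, counted from the start. Igtp and Irgm2 carry the same letters within a stretch that is almost the same in both. Of the 10 GTPase genes with a promoter in the table, 9 held the motif on either strand (90.0%), against 367 of 9862 tested genes with a promoter (3.72%). In Igtp and Irgm2 the letters TGACNNNGC, described below for Gclm, were also found, apart from the capitals. The GAAA pair was in 10 of 20 promoters of type I interferon response genes and in 5 of 18 of MHC class I genes (27.8%). A match describes the sequence and does not show that a factor was bound.

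Antigen presentation by MHC class I went the same way. This pathway cuts proteins with the immunoproteasome, pumps the peptides through TAP and shows them on class I molecules with beta-2 microglobulin. Of 20 tested genes, 18 were higher in both Tet2 hearts and 0 lower in both, 13 of them at an unadjusted p under 0.05, with a median of 0.66. B2m, the beta-2 microglobulin gene, was at 216, 450 and 425 CPM (log2 fold change 1.02 ± 0.18 SE; limma, adjusted p = 0.324). The class I heavy chain H2-K1 was at 178, 329 and 277 CPM, with reads that may be shared among class I copies. Tap1, a subunit of the peptide pump, was at 9.96, 21.5 and 33.8 CPM and Psmb9, an immunoproteasome subunit, at 5.84, 12.4 and 24.7 CPM. Both Tet2 hearts lay above WT in each of these 4, which were named for a small p or a high level. MHC class II, which displays peptides on macrophages and dendritic cells, gave other values, with no test of the difference: of 7 genes 2 were higher and 1 lower in both, and Cd74, the invariant chain, was at 84.3, 73.0 and 116 CPM, on both sides of WT.

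Of 29 type I interferon response genes, 24 were higher and 2 lower in both Tet2 hearts, with 9 higher at an unadjusted p under 0.05, 3 at least 2-fold higher and a median of 0.65. Irf9, a DNA-binding factor of the interferon response, was at 16.3, 27.6 and 26.2 CPM. Zbp1, a sensor of nucleic acids in the Z form, was at 1.05, 3.67 and 3.33 CPM. Parp14, by contrast, lay on both sides of WT at 34.5, 44.9 and 32.5 CPM. The plot of interferon genes by library shows the named genes, most of them chosen by a small p in this comparison.

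**Figure D4:**
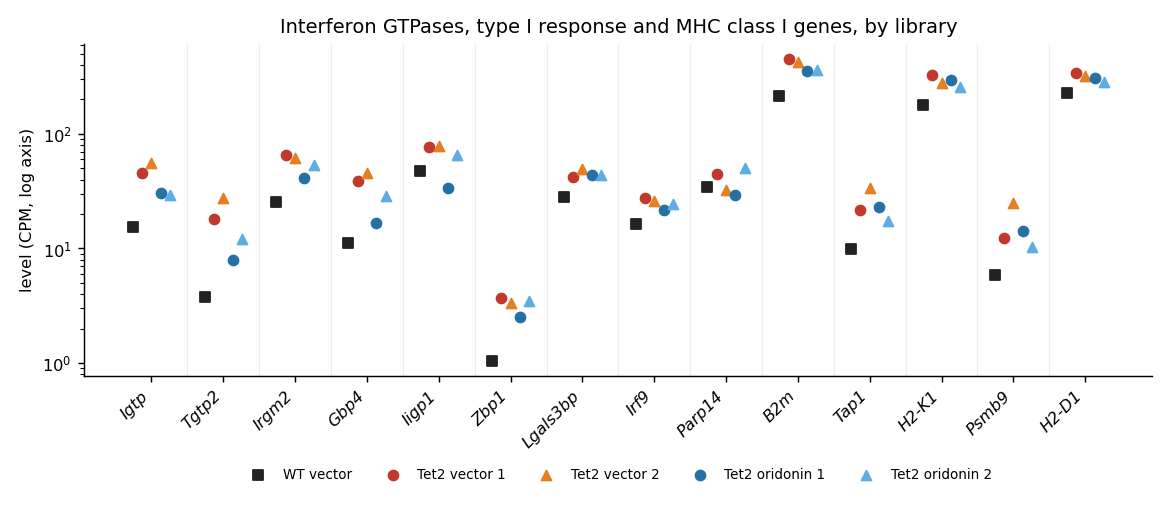
Level in CPM (log axis) in each of the 5 libraries for the named interferon-inducible GTPases (Igtp to Iigp1), type I response genes (Zbp1 to Parp14) and MHC class I genes (B2m to H2-D1). Black squares are WT, warm colours Tet2 vector and blue colours Tet2 oridonin. Both Tet2 vector points lie above WT for each gene except Parp14, where replicate 2 lies below.

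Macrophage and monocyte markers were higher on the whole, with the larger difference in replicate 1. Of 29 macrophage and monocyte markers, 19 were higher and 2 lower in both. At an unadjusted p under 0.05, 11 were higher and 1 lower, and 6 were at least 2-fold higher and 1 at least 2-fold lower in both. Log2 fold changes over the list ran from -1.72 to 4.32. The median log2 ratio was 0.91 in replicate 1 and 0.29 in replicate 2. Of the 29 genes, 6 were under 1 CPM in WT. The summed level of the list was 503, 885 and 569 CPM. C1qa, a complement subunit made by resident macrophages, was at 40.4, 78.2 and 61.2 CPM, and Lyz2, lysozyme, at 179, 338 and 215 CPM. Plac8, of monocytes, was at 0.467, 2.51 and 1.70 CPM. Of 17 neutrophil and mast cell markers only 5 passed the filter, 4 of them with WT under 1 CPM, so that they had to be higher elsewhere to be tested. S100a8 and S100a9, the calprotectin subunits of neutrophils and monocytes, were at 0.333, 1.48 and 2.61 CPM and at 0.983, 3.99 and 5.80 CPM, while Mpo had 0 counts in all 3 libraries, which allows up to 0.200 CPM in WT. Kit, a receptor of mast cells and progenitors, was at 1.48, 4.70 and 3.85 CPM. Lymphocyte markers were near the floor, with 2 of 24 tested.

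Chemokines, complement and the inflammasome are what such cells are known to make. Of 18 chemokine genes tested, 12 were higher and 1 lower in both, with 6 at least 2-fold higher and a median of 0.62 (0.47 with length centred), but 5 of the 18 were under 1 CPM in WT. Cxcl9, a chemokine that interferon-gamma induces, was at 2.57, 6.44 and 6.98 CPM, and Pf4, of platelets and macrophages, at 6.28, 21.2 and 11.0 CPM. Cxcl12, which holds blood stem cells in their niche, was at 216, 310 and 238 CPM. Of 15 inflammasome and pyroptosis genes, 12 were higher and 2 lower in both (median 0.73). Gsdmd, the pore of pyroptotic cells, was at 3.81, 9.53 and 9.78 CPM, and Pycard, the adaptor ASC, at 2.07, 8.50 and 4.76 CPM. The sensor Nlrp3 had 11, 3 and 3 counts and was not tested. Of 22 complement genes 12 were higher and 2 lower in both, and 3 of the 22 were under 1 CPM in WT. Clu, which restrains complement and binds lipids, was among the lower ones at 879, 496 and 588 CPM.

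In the list for the senescence-associated secretory phenotype, the set of factors that arrested cells release, 21 of 32 tested genes were higher and 2 lower in both, with 7 higher at an unadjusted p under 0.05 and a median of 0.34, and 6 of the 32 were under 1 CPM in WT. Lcp1, an actin-bundling protein of white blood cells, was at 15.9, 41.1 and 32.3 CPM, and Igfbp7, a secreted binding protein, at 132, 156 and 228 CPM. The list of cell cycle inhibitors and p53 targets had 7 higher and 9 lower of 26 and a median of -0.02. Cdkn1a, the inhibitor p21, was lower in both, as was Sesn1, a p53 target that restrains mTORC1, at 225, 132 and 115 CPM. Cell division genes had 14 of 23 higher and 1 lower in both, 7 of them under 1 CPM in WT, with the replication helicase genes Mcm6 at 6.23, 12.7 and 12.4 CPM and Mcm2 at 3.72, 7.98 and 7.17 CPM.

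Fibrillar collagen, proteoglycan and matricellular genes, which activated fibroblasts are known to express, formed the other large group on the higher side. Which cells expressed them here was not tested. Of 20 genes of fibrillar collagens and their processing, 14 were higher and 4 lower in both, with 5 at least 2-fold higher and a median of 0.45 (0.73 and 0.27 by replicate, or 0.69 and 0.63 with length centred). Col3a1 and Col1a1, the main collagens of scar, had log2 fold changes of 1.76 ± 0.22 SE and 1.39 ± 0.21 SE. Pcolce, which speeds the removal of the collagen propeptide, was at 30, 62.3 and 68.1 CPM, and Col12a1, a fibril-associated collagen of strained tissue, at 1.02, 4.25 and 6.65 CPM. Serpinh1, the collagen chaperone, was nearer WT at 147, 213 and 168 CPM. Under oridonin Col12a1 was at 0.820 and 0.823 CPM and Pcolce at 51.3 and 49.1 CPM.

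Small leucine-rich proteoglycans, which coat and space collagen fibrils, were higher in both for 8 of 10 genes and lower in both for 0, with a median of 0.59. Ogn was at 59.7, 169 and 167 CPM, Lum at 57.1, 114 and 99.2 CPM and Bgn at 171, 244 and 312 CPM. Of 21 matricellular proteins, which signal to cells from the matrix, 15 were higher and 2 lower in both. At least 2-fold higher were 6, the median was 0.65, and 3 of the 21 were under 1 CPM in WT. Comp, of cartilage and fibrotic matrix, was at 2.77, 20.02 and 45.3 CPM. Cilp2, of cartilage matrix, had 0 counts in WT and 76 and 21 in the Tet2 hearts. Placing it at its bound, with 3 counts in WT, leaves the list median as it is, because the bound lies above the median too. The lower members were Thbs2, at 84.6, 42.5 and 48.5 CPM, and Ccn2, the connective tissue growth factor, at 151, 57.5 and 92.6 CPM.

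The other matrix lists varied, and differences between lists were not tested. Of 20 elastic fibre and crosslinking genes 8 were higher and 3 lower in both (median 0.29). Of 22 matrix proteases and inhibitors likewise 8 and 3 were (median 0.18), and 3 of the 22 were under 1 CPM in WT. Of 21 basement membrane genes 3 were higher and 10 lower in both. Lama5, a laminin chain of vessels, was at 192, 101 and 79.3 CPM, whereas Col15a1, which anchors basement membrane to the matrix around it, was at 23.4, 77.0 and 58.3 CPM. This list held long transcripts, and its median of -0.13 became 0.09 with length centred. Of 24 TGF-beta signalling genes 8 were higher and 9 lower in both (median -0.12), among them Inhba, the activin A subunit, at 0.667, 3.28 and 1.63 CPM and the ligand Bmp6 at 67.7, 42.5 and 41.3 CPM. Of 20 resident fibroblast markers 13 were higher and 4 lower in both (median 0.54), but their summed level was 2889, 2999 and 2975 CPM, since Gsn, gelsolin, which makes up most of it, was at 1944, 1682 and 1691 CPM. Col6a2, a beaded-filament collagen, was at 37.9, 76.7 and 78.3 CPM.

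Muscle genes went both ways. Of 37 sarcomere genes 11 were higher and 15 lower in both, with a median of -0.09. Actc1 and Fhl2, a LIM protein of the Z disc and I band, were higher, Fhl2 at 1094, 2028 and 2390 CPM. Myom2, of the M band, at 1625, 615 and 663 CPM, and Nrap, which anchors actin while myofibrils are built, at 787, 428 and 457 CPM, were lower. The oridonin hearts were on the Tet2 vector side in Actc1, at 12753 and 13470 CPM, Fhl2, at 1891 and 2088 CPM, and Myom2, at 552 and 752 CPM. In Nrap they lay between WT and the Tet2 vector hearts, at 536 and 636 CPM. Of 24 tubulin and microtubule genes 13 were higher and 5 lower in both and 7 were at least 2-fold higher. Besides the alpha-tubulins these were led by the beta-tubulins Tubb4b, at 126, 281 and 309 CPM, and Tubb5, at 65.2, 134 and 144 CPM. Map4, which stabilises microtubules, was lower at 470, 355 and 268 CPM. Tubulin copies are similar in sequence, and reads may be divided among them.

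Calcium handling genes run the cycle that triggers each beat. Of 29 genes 9 were higher and 12 lower in both (median -0.11). Cacna1c, the L-type channel, was at 430, 219 and 159 CPM, Ryr2, the release channel of the sarcoplasmic reticulum, at 2373, 1403 and 574 CPM, and Atp2a2, the pump SERCA2, at 18224, 14279 and 10316 CPM. The calsequestrin gene Casq2 was higher, at 709, 971 and 967 CPM. Of 28 intercalated disc genes, which join one muscle cell to the next, 2 were higher and 17 lower in both (median -0.27, or -0.18 with length centred). Dsp, desmoplakin, was at 1703, 1047 and 656 CPM. In Cacna1c, Ryr2, Atp2a2 and Dsp replicate 2 lay lower than replicate 1, the direction of its slope with length. Hand2, a transcription factor of the right ventricle, was even between replicates at 72.8, 28.3 and 27.5 CPM. Of the wall stress genes, 6 of 19 were higher and 6 lower in both, and Ankrd1 lay on both sides of WT at 1010, 495 and 1523 CPM.

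Most fuel genes for fat and amino acids, but not all, were lower in both Tet2 hearts. Of 38 genes of fatty acid uptake and oxidation, 25 were lower and 5 higher in both, 6 lower at an unadjusted p under 0.05, with a median of -0.19 (-0.26 with length centred). Pnpla2, the lipase that frees fatty acids from stored fat, was at 680, 281 and 390 CPM, Acot1, a thioesterase and target of PPAR-alpha, at 16.1, 8.24 and 6.91 CPM, and Lpl, lipoprotein lipase, at 7521, 4732 and 5508 CPM. Of 22 genes of ketone and branched-chain amino acid use, 16 were lower and 1 higher in both (median -0.26). Ivd, which breaks down leucine, was at 605, 350 and 395 CPM. The glucose list was even, with 11 higher and 11 lower of 32, and held Slc2a1, the basal glucose carrier, at 37.6, 19.0 and 21.1 CPM and Eno1 at 64.5, 98.4 and 103 CPM. Nuclear subunits of the respiratory chain had 23 of 56 higher and 8 lower in both and 0 at an unadjusted p under 0.05 in either direction. Their median of 0.10 became -0.12 with length centred. Of the 13 protein-coding genes of the mitochondrial genome 10 were higher and 1 lower in both (median 0.43, or 0.16 with length centred).

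Glucocorticoid-induced genes had the lowest median among lists of at least 10 tested members. Glucocorticoids are steroid hormones that enter cells, bind the receptor Nr3c1 and raise a shared set of targets within hours, in heart as elsewhere. Of 28 tested targets, 19 were lower and 2 higher in both Tet2 hearts, 8 were at least 2-fold lower and 0 at least 2-fold higher, and 11 were lower at an unadjusted p under 0.05. The median was -0.59, and -0.61 with length centred. Zbtb16 (chromosome 9, 48651797 to 48836225), a zinc finger factor, was at 122, 16.0 and 7.56 CPM (log2 fold change -3.47 ± 0.54 SE; limma, adjusted p = 0.295). Fkbp5 (chromosome 17, 28398753 to 28486149), a co-chaperone that holds the receptor back, was at 77.2, 26.8 and 21.8 CPM (log2 fold change -1.67 ± 0.25 SE; limma, adjusted p = 0.293). Map3k6, a stress kinase, was at 35.9, 8.75 and 10.9 CPM and Plin4, a lipid droplet protein, at 267, 125 and 95.3 CPM. The oridonin hearts were below the 1 WT library in these genes too, at 25.1 and 25.2 CPM for Fkbp5 and 24.2 and 45.3 CPM for Zbtb16. The full palindrome of the glucocorticoid response element, AGAACA and TGTTCT set 3 bases apart, was found in 1 of 25 promoters of these genes, that of Sgk1 (4.00%), and in 0.0101% of promoters of all tested genes, which says only that the letters are rare in this window.

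Clock genes, some of which glucocorticoids also set, had 13 of 24 lower and 5 higher in both. Dbp, an output factor of the clock, was at 37.0, 85.5 and 98.9 CPM, Bmal1, a core activator, at 7.55, 1.29 and 3.72 CPM and the repressor Per1 at 80.8, 52.3 and 45.5 CPM. The labels give no hour of death, and its part in these genes was not tested. Of 24 immediate early genes 12 were lower and 5 higher in both, with Egr1 higher at 5.80, 14.2 and 11.3 CPM and Nr4a3 lower at 9.16, 2.51 and 4.37 CPM.

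Targets of NRF2, the factor that turns on antioxidant and glutathione genes, were lower in both for 15 of 24 and higher in both for 4, with 6 lower at an unadjusted p under 0.05 and a median of -0.20 (-0.35 with length centred). Gclm (chromosome 3, 122245487 to 122267215), the regulatory subunit of the enzyme that starts glutathione synthesis, was at 62.7, 19.1 and 18.5 CPM (log2 fold change -1.74 ± 0.24 SE; limma, adjusted p = 0.293). The catalytic subunit, Gclc, outside the rule for named genes and picked after its values were seen, was at 16.7, 16.0 and 15.7 CPM. The RefSeq promoter of Gclm is shown because it holds the core letters of the antioxidant response element, TGACNNNGC, here on the other strand and in capitals, beginning at position -134.
Gclm (chr3:122245307-122245606, plus strand): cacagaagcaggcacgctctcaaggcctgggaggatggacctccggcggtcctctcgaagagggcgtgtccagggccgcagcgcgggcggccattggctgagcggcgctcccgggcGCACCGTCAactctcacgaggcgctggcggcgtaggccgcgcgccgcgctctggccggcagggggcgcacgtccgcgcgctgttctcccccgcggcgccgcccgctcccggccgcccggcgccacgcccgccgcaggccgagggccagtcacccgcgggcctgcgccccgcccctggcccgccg
These letters were in 8 of the 19 NRF2 targets with a listed promoter on either strand (42.1%), against 1701 of 9862 tested genes (17.2%). Cat, catalase, was at 364, 198 and 237 CPM and Osgin1, a growth inhibitor, at 8.83, 2.64 and 3.85 CPM. The ferritin heavy chain Fth1 lay on both sides of WT, at 1895, 1731 and 2553 CPM. Cdo1, cysteine dioxygenase, which diverts cysteine from glutathione to taurine, was lower too, at 31.7, 3.22 and 4.17 CPM (log2 fold change -3.10 ± 0.39 SE; limma, adjusted p = 0.264), with 2.05 and 2.68 CPM under oridonin. Of 16 genes of sulphur amino acids and glutathione 11 were lower and 2 higher in both.

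Autophagy genes, which enclose and digest cell parts and spent mitochondria, were lower in both for 26 of 41 and higher in both for 8, with 8 lower at an unadjusted p under 0.05 and a median of -0.28. Atg13 (chromosome 2, 91674612 to 91710597) and Ulk1, partners in the kinase complex that starts the process, were at 160, 50.4 and 46.4 CPM and at 132, 68.0 and 62.4 CPM. Sqstm1, the cargo receptor p62 and also an NRF2 target, was at 683, 253 and 365 CPM. Lamp1, of the lysosome membrane, stood close to WT at 470, 477 and 476 CPM. Chaperones of heat shock had 7 of 29 higher and 13 lower in both, and genes of the unfolded protein response 13 of 30 higher and 11 lower. Among the latter, Herpud1, which helps clear misfolded proteins, was at 370, 180 and 192 CPM and Asns, asparagine synthetase, at 1.52, 3.60 and 3.85 CPM.

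**Figure D5:**
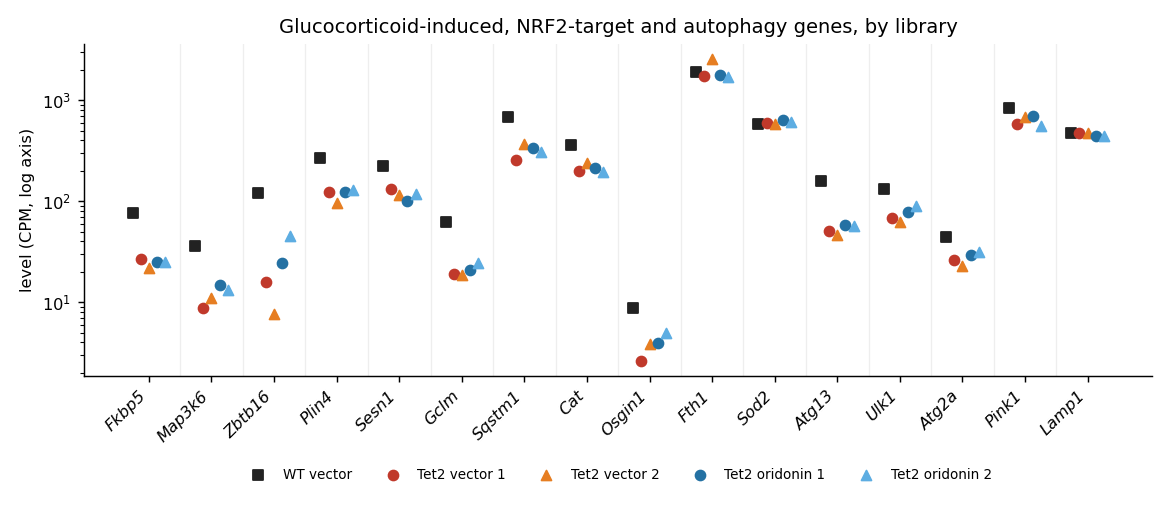
Level in CPM (log axis) in each of the 5 libraries for the named glucocorticoid-induced genes (Fkbp5 to Sesn1), NRF2 targets (Gclm to Sod2) and autophagy genes (Atg13 to Lamp1). Black squares are WT, warm colours Tet2 vector and blue colours Tet2 oridonin. WT is the highest of the 5 libraries in all of them except Fth1, Sod2 and Lamp1. Most were chosen by a small p in this comparison. Over the whole lists 2 of 28, 4 of 24 and 8 of 41 genes were higher in both Tet2 vector hearts.

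Vessel markers were mixed. Of 26 endothelial genes 5 were higher and 13 lower in both, with Emcn, a sialomucin of capillaries and veins, at 34.1, 66.7 and 59.8 CPM and the VEGF receptor Flt1 at 271, 180 and 177 CPM. Of 21 smooth muscle and pericyte genes 7 were higher and 8 lower, with the smooth muscle actin Acta2 at 105, 480 and 214 CPM and Rgs5, of pericytes, at 869, 666 and 615 CPM. Of 13 tested genes of fat cells, 6 were lower and 1 higher in both, with a median of -0.44 and a summed level of 2002, 1449 and 1721 CPM. Heart muscle and endothelium also express the most abundant of them, such as Pnpla2 and Fabp4, a fatty acid carrier at 515, 459 and 684 CPM. Plin1, of fat droplets, had 0, 24 and 0 counts and Car3, a carbonic anhydrase of fat and skeletal muscle, 5, 194 and 5 counts, so that both were high in replicate 1 alone among the 3 libraries.

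Enzymes of the epigenome were read in a pair of lists. Of 24 enzymes that write or erase methylation of lysine 4 on histone H3, 5 were higher and 13 lower in both. The median was -0.01 in replicate 1 and -0.53 in replicate 2, or -0.06 and -0.18 with length centred, and Kmt2d, a long methyltransferase gene, was at 79.2, 50.6 and 24.2 CPM. Of 17 genes of DNA methylation and its removal 6 were higher and 2 lower in both. Tet1, a relative of Tet2, was at 1.10, 8.24 and 3.52 CPM.

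Ribosomal protein genes and their processed copies were higher in both for 103 of 128 and lower in both for 4, but by little. The median was 0.39 (0.20 in replicate 1, 0.56 in replicate 2), and 0.15 with length centred, since these are among the shortest transcripts. Rpl3 was at 125, 268 and 225 CPM and Rplp0 at 562, 638 and 724 CPM. Copies of such genes share reads, so single members are uncertain.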

How the data were processed

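Per the labels' protocols, poly-T selected RNA of heart tissue was made into libraries with the NEBNext Ultra kit. The deposited table holds log2 CPM values, counts scaled to each library's total with 0.5 added to each count. Per the submitters' processing notes, mm10 was the genome build. The sources used here do not name the aligner, counter, annotation or strand setting. Each Tet2 column was a mix of 0.75 of 1 replicate and 0.25 of the other. Taking 1.5 times the own column less 0.5 times the other gave whole counts (within 0.01) for at least 99.9% of genes, against 10.4% or less before. The WT column was fitted by 2 whole counts mixed 0.75 to 0.25 for 99.0% of 3627 genes. No other WT column was available, so WT could not be separated.

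Genes that reached 1 CPM in 2 or more of 5 libraries were tested with limma 3.58.1 (R 4.3.3, trend and robust) on the separated log2 values, with 3 groups, 2 residual degrees of freedom and Benjamini-Hochberg adjustment. The 1 WT library was assumed to vary like the Tet2 groups, which a mixed column that could not be separated need not do. The effect on standard errors and p-values was not tested. Errors are limma's standard errors, and log2 fold changes are on the scale with 0.5 added to each count. Counting error is the least error of a level, and 3 counts is the upper limit that a count of 0 allows.

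The 57 lists and their members were chosen with earlier results of these data known. Named genes were the 12 higher and 12 lower with the smallest p, the 8 in each direction with the largest fold at a mean of at least 5 CPM, genes at no more than 3 counts on one side and at least 30 in every library of the other, and in each list up to 4 with the smallest p and 2 with the highest level. Some genes that this rule names are not reported here. Defining markers of other cell types and chambers were named as checks. Replicate numbers were not used to pair the samples. Deviations of same-numbered replicates had a correlation of -0.30 over 12734 genes, which cannot show whether the numbers pair them. Alternatives were other filters, scalings, models, folds and sets of libraries, a replicate block, the values as deposited and, added after the data were seen, ratios centred on transcript length. Positions and promoters are from RefSeq GRCm38.p6. Transcript lengths are those of the longest transcript of each gene in the GENCODE annotation of the same build. Figures were drawn with matplotlib 3.10.9.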

Additional observations from a re-analysis of the deposited data

How the results depend on the processing

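At an FDR of 0.05 the count of genes was 0 with 5 libraries and 2 to 107 when 1 library was left out, 103 with the WT and Tet2 vector libraries only, 10 with a replicate block and 2334 on the values as deposited with the mix left in, where the columns of a group share counts. At an unadjusted p under 0.05 it was 1221 genes, 939 to 2233 when 1 library was left out, 579 with the replicate block and 4723 as deposited. Whether the replicate numbers pair the libraries is not known, and the block is given for completeness. The count of genes at least 2-fold from WT in both Tet2 hearts went from 547 to 2051 with no filter, 301 with 1 CPM in all 5 libraries, 1583 at 1.5-fold, 160 at 3-fold, and 1319 to 1454 when 1 library was left out, where a single Tet2 heart decides. With ratios centred on transcript length, Esrra (-0.0624), Lamp1 (-0.106), Txnip (-0.0368), mt-Co1 (-0.0639) and Glo1 (0.285) changed sign, and Glo1 did so too with totals that leave out the mitochondrial genome (0.0284); the cause was not tested. Of 27 lists with a median at least 0.25 from 0, 2 changed sign in any alternative, those of nerve and glia and of fat cells. Of 30 lists with a smaller median, 17 did. With 1 WT library, no setting can show how WT hearts vary.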

Other observations

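WNT signalling guides growth and repair. Of 27 genes tested, 10 were higher (37.0%, beside 35.4% of all genes) and 4 lower in both Tet2 hearts. Among the 27, 5 were under 1 CPM in WT, Sfrp2 being one of them, and were tested only because other libraries were higher. The median log2 fold change was 0.16, with 0.55 in replicate 1 and -0.12 in replicate 2. Sfrp2, a secreted WNT modulator of fibroblasts, was at 0.816 CPM in WT and 6.82 and 9.72 CPM in Tet2 replicates 1 and 2, and at 1.16 and 1.58 CPM in the oridonin hearts. Its relative Sfrp1 was at 13.9, 36.9 and 32.4 CPM. Lrp5, a co-receptor of WNT, was lower in both, at 105, 57.0 and 65.0 CPM.

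Of 15 tested genes of insulin and IGF signalling, 8 were lower and 5 higher in both, with a median of -0.43. With length centred it was -0.54 in replicate 1 and 0.01 in replicate 2. Insr, the insulin receptor, was at 263, 147 and 95.7 CPM and Irs1, the adaptor that carries its signal, at 27.1, 10.7 and 3.46 CPM. The binding protein Igfbp3 was higher, at 23.9, 42.6 and 49.2 CPM. Of 17 catecholamine and adrenergic genes 7 were lower and 4 higher in both. The alpha-adrenergic receptor Adra1a was at 37.1, 14.0 and 10.6 CPM and Grk5, a kinase that silences such receptors, at 61.6, 32.7 and 24.7 CPM.

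Of 6 tested genes known to vary between inbred mouse strains, Wdfy1 was at 7.51, 24.7 and 24.2 CPM in the vector hearts and at 4.99 and 6.04 CPM in the oridonin hearts, so that WT and oridonin stood together. The other members lay nearer to WT, with log2 fold changes down to -0.58. Glo1 was at 89.0, 82.9 and 87.4 CPM and Nnt at 1.35, 1.22 and 1.04 CPM. Over the list, 4 genes were lower in both (66.7%, beside 32.3% of all genes) and 1 was higher in both (16.7%, beside 35.4%).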
